A study of Mus musculus with 2 samples.

Results

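The Hox cluster microRNAs are the 6 microRNA genes Mir10a, Mir10b, Mir196a-1, Mir196a-2, Mir196b and Mir615, which lie inside the 4 clusters of Hox genes of the mouse. They are 6 of the 1973 microRNA genes with a row in the count tables. They were chosen by their place in the clusters with their values in these libraries, including the ratio between the livers, already known, so their levels and ratios are given below as a description, with no test. Small RNA under 30 nucleotides was sequenced from embryonic mouse liver at day 14.5 (strain B6NCrl, mixed sex), as 2 libraries in 1 group with no treatment. They are called replicate 1 and replicate 2, after the biological replicate numbers in the labels. The labels describe a liver from 1 pup for each, collected on different days, yet also pooled sexes and the same donor ID, so how far the livers are separate animals is uncertain and the spread between them may be technical. Replicate 1 had 6395680 reads and replicate 2 had 8068090, and the counts that fell on microRNA genes in the sense direction came to 2353946 and 3132763. Levels are in CPM, the same-strand counts of a gene scaled to this total, and ratios are replicate 1 over replicate 2. Intervals are exact 95% intervals that cover counting error only and leave out variation between animals and libraries. They take reads as independent, so they are too narrow where reads are PCR copies of 1 molecule. The labelled tissue matched its markers, since Mir122, which is typical of hepatocytes, stood at 97349 CPM in replicate 1 and at 110371 CPM in replicate 2.

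Hox genes encode transcription factors that give embryonic cells their position along the body axis, and their order on the chromosome follows the order in which they are used from head to tail. MicroRNAs are cut from hairpin precursors and pair with messenger RNAs, mainly through bases 2 to 8 of the mature strand, the seed. The microRNAs of the Hox clusters are expressed in trunk patterns related to those of the neighbouring Hox genes, and some of their best known targets are Hox messenger RNAs. In mouse embryos, miR-196a directs the cleavage of the Hoxb8 messenger RNA.

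The mature sequences are those of the miR-10, miR-196 and miR-615 families, and miR-615 is shown with both strands of its hairpin, which have different seeds. They are printed 5′ to 3′ with the seed in capitals because paralogs share the seed and the remaining bases set which reads can be told apart. All 6 genes had entries in RefSeq (build GRCm38.p6), from which the sequences were taken.
miR-10a-5p (Mir10a): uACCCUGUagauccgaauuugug
miR-10b-5p (Mir10b): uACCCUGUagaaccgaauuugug
miR-196a-5p (Mir196a-1 and Mir196a-2): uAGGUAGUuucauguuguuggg
miR-196b-5p (Mir196b): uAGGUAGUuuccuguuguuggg
miR-615-3p (Mir615): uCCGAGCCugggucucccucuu
miR-615-5p (Mir615): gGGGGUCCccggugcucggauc
Among the 1679 mature names in the RefSeq table, miR-10a-5p and miR-10b-5p shared their seed with each other alone, and so did miR-196a-5p and miR-196b-5p. In each pair a single base outside the seed separated the paralogs, at the same place: U12A between miR-10a-5p and miR-10b-5p, and A12C between miR-196a-5p and miR-196b-5p, counted from 1 at the 5′ end with the a form first. Neither miR-615 strand shared its seed with another mature name in the table. The tables count reads per gene and do not give the arm of the hairpin.

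Mir196a-1 and Mir196a-2 make the same mature strand from hairpins that differ around it. The hairpins are shown with the longest stretch they share in capitals, since that stretch decides what could be counted.
Mir196a-1: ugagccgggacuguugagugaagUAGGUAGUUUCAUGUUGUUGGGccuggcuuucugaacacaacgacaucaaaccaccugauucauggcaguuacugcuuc
Mir196a-2: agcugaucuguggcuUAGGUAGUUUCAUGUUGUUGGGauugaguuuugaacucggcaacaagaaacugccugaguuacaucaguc
The shared stretch is 22 bases long and is the whole of miR-196a-5p. A read that lies within it matches both genes, and the deposited tables hold reads mapped to more than 1 place in a row of their own, outside the gene counts (34.0% of the reads of replicate 1 and 33.1% of those of replicate 2). The values of Mir196a-1 and Mir196a-2 below are therefore lower limits. For Mir10a and Mir10b the longest shared stretch of the hairpins was 15 bases, and for Mir196b with Mir196a-2 it was 12 bases, shorter than the mature strands. The mature strands of Mir10a, Mir10b, Mir196b and Mir615 were found in the hairpin of no other gene of the table.

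The genes keep corresponding places in the clusters (coordinates are those of mm10, which is GRCm38, with GENCODE M21 annotation). Mir10a lies on the plus strand in the Hoxb cluster at chr11:96317165-96317274, in no annotated Hox transcript, 1.61 kb before the start codon of Hoxb4 and 13.6 kb after that of Hoxb5. Mir10b lies on the plus strand in the Hoxd cluster at chr2:74726070-74726137, 1.21 kb before the start codon of Hoxd4. It is intronic in 1 transcript of Hoxd3 and in transcripts of Hoxd4. Both miR-10 genes thus stand just before the Hox gene of group 4.

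The miR-196 genes stand between the Hox gene of group 9 and the next one toward group 13. Mir196a-1 lies at chr11:96265164-96265265 on the plus strand, 6.38 kb before the start codon of Hoxb9, in no annotated Hox transcript. Mir196a-2 lies at chr15:102973350-102973434 on the plus strand, 8.30 kb before the start codon of Hoxc9 and within an intron of a long non-coding transcript of Hoxc5. Mir196b lies at chr6:52230081-52230165 on the minus strand, 4.06 kb before the start codon of Hoxa9. It overlaps exons of the Hoxa9-204 and Hoxa9-205 non-coding transcripts and an intron of Hoxa9-203. Mir615 has no partner in another cluster. It lies in an intron of Hoxc5 at chr15:103014910-103015001 on the plus strand, 0.828 kb after that gene's start codon. All 6 genes are read in the same direction as the Hox genes around them, and no other microRNA row of the tables lies within the clusters.

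**Figure D1:**
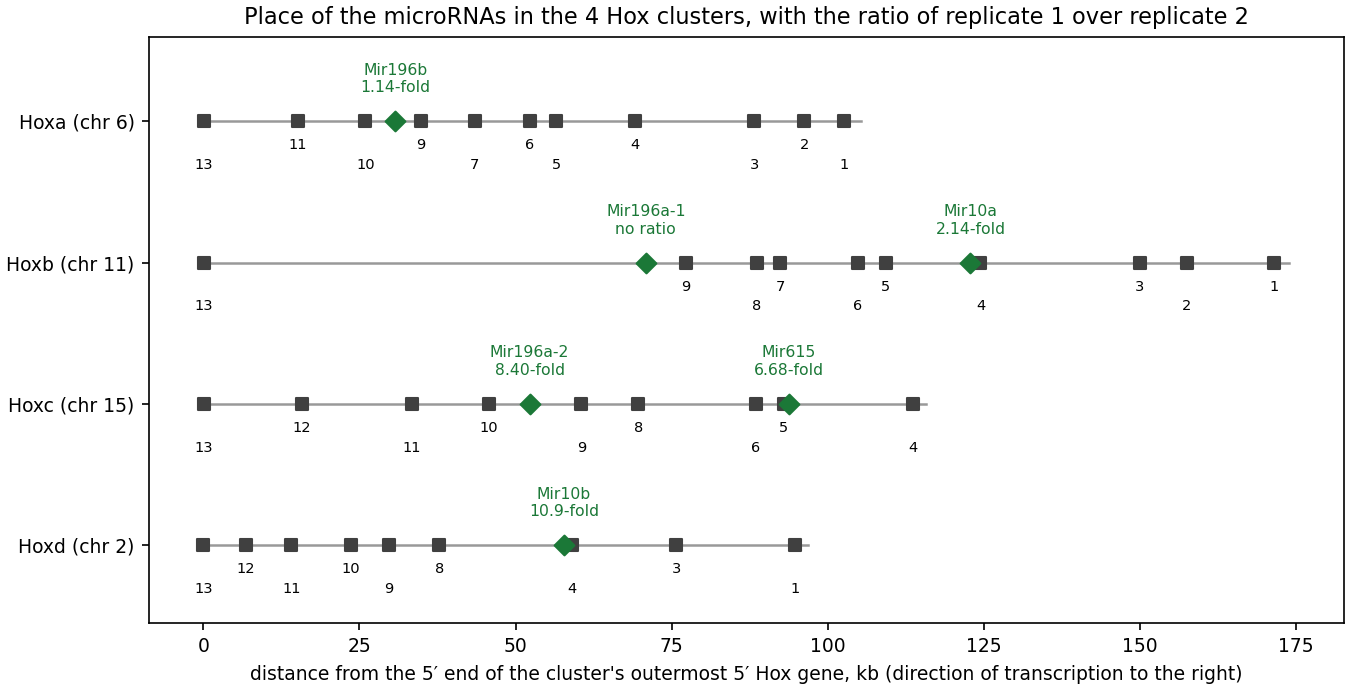
Place of the 6 microRNA genes (green diamonds) among the start codons of the Hox genes (dark squares, numbered by group) in each of the 4 clusters, in kb from the 5′ end of the outermost Hox gene, with transcription to the right. Green numbers are the ratio of the CPM of replicate 1 over that of replicate 2: Mir10b in Hoxd stood at 10.9, the pair in Hoxc at 8.40 and 6.68, Mir10a in Hoxb at 2.14 and Mir196b in Hoxa at 1.14, and no ratio is given for Mir196a-1.

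Mir10a and Mir10b had the highest counts of the set in each liver. Mir10a had 17852 counts in replicate 1 and 11117 in replicate 2, which is 7584 CPM (interval 7473 to 7696) and 3549 CPM (3483 to 3615). It was the highest member in both livers, at rank 35 and rank 56 of the 1973 genes. Mir10b had 14984 counts in replicate 1 and 1826 in replicate 2, which is 6365 CPM (6264 to 6468) and 583 CPM (556 to 610.2). It stood close behind Mir10a in replicate 1, at rank 40, and far behind it in replicate 2, at rank 119.

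The other 4 members were lower. Mir196b had 1060 counts in replicate 1 and 1238 in replicate 2, or 450.3 CPM (424 to 478) and 395 CPM (373 to 418), and was thus the member closest to equal. Mir615, the microRNA of the Hoxc5 intron, had 713 counts in replicate 1 and 142 in replicate 2, or 303 CPM (281 to 326) and 45.3 CPM (38.2 to 53.4). Mir196a-2 had 101 counts in replicate 1 and 16 in replicate 2, or 42.9 CPM (34.9 to 52.1) and 5.11 CPM (2.92 to 8.29), among reads that map to 1 place. Both genes of the Hoxc cluster were high in replicate 1 and low in replicate 2. Mir196a-1 had 0 counts in replicate 1 and 1 count in replicate 2, at or under the 3 counts that a count of 0 allows (1.27 CPM in replicate 1 and 0.958 CPM in replicate 2), so no ratio is given for it.

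The order by level was Mir10a, Mir10b, Mir196b, Mir615, Mir196a-2 and Mir196a-1 in each liver, among reads that map to 1 place. The places of Mir196a-2 and Mir196a-1 hold for such reads only, since their values are lower limits. No neighbours in this order had overlapping counting intervals within a liver. Over the 2 livers the means were 5566 ± 2853 CPM for Mir10a, 3474 ± 4089 CPM for Mir10b, 423 ± 39.0 CPM for Mir196b, 174 ± 182 CPM for Mir615 and 24.0 ± 26.7 CPM for Mir196a-2 (SD, n = 2). This SD is the spread of a gene between livers. It does not measure the order of the genes, which were counted in the same libraries. With 2 livers the order was not tested. Among these 5 genes the SD exceeded the mean for Mir10b, Mir615 and Mir196a-2, and it was smallest relative to the mean for Mir196b.

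**Figure D2:**
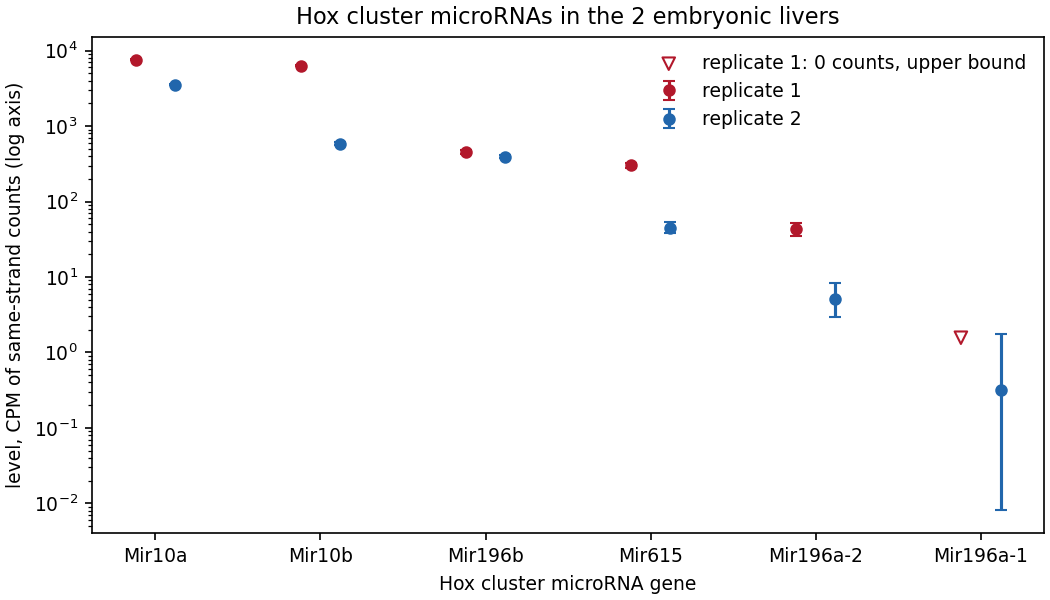
Level of each Hox cluster microRNA gene in replicate 1 (red, left) and replicate 2 (blue, right), in CPM of same-strand counts on a log axis, with exact 95% Poisson intervals that cover counting error only. The points of a gene are far apart for Mir10b (6365 and 583 CPM) and close for Mir196b (450.3 and 395 CPM), and the open triangle marks the upper bound for Mir196a-1 in replicate 1, which had 0 counts.

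Of the 6 members, 5 had at least 10 counts in each library, and each stood higher in replicate 1. Mir10b was 10.9-fold higher in replicate 1 (10.4 to 11.5). Mir196a-2 was 8.40-fold higher (4.93 to 15.3) and its neighbour in the Hoxc cluster, Mir615, 6.68-fold higher (5.57 to 8.06). The Hoxd gene and the Hoxc genes therefore had the large ratios. Mir10a of the Hoxb cluster was 2.14-fold higher in replicate 1 (2.09 to 2.19), and Mir196b of the Hoxa cluster 1.14-fold higher (1.05 to 1.24). Thus 4 of 5 members were over 2-fold higher in replicate 1. The background was 332 genes that reached 10 counts in both libraries, of which 18 were over 2-fold apart in either direction (5.42%) and 17 were over 2-fold higher in replicate 1 (5.12%). The set was chosen on these same ratios, so nothing is read from the difference between those shares. With 1 library per liver no test of the ratios between animals exists. Collection day and liver cannot be told apart, and in whole tissue fewer cells that make a microRNA and less of it per cell cannot be told apart.

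Paralogs with the same seed did not share a ratio. Mir10b and Mir10a differed in theirs by more than counting error (10.4 to 11.5 against 2.09 to 2.19), and so did Mir196a-2 and Mir196b (4.93 to 15.3 against 1.05 to 1.24). The interval of Mir196a-2, which rests on 16 counts in replicate 2, overlapped that of Mir615 in the same cluster (5.57 to 8.06) and also that of Mir10b in the Hoxd cluster. The counts of Mir196a-2 leave out reads that lie within its mature strand, so its contrast with Mir196b holds only among reads that map to 1 place.

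Ratios between members within a library do not use the library total. They are the same counts arranged by liver and add no separate evidence. In replicate 1, Mir10a had 1.19 counts for each count of Mir10b (1.17 to 1.22), against 6.09 in replicate 2 (5.79 to 6.40). Mir10b thus gave 45.6% of the miR-10 counts in replicate 1 (45.1 to 46.2) and 14.1% in replicate 2 (13.5 to 14.7). How the aligner treated a mismatch at base 12, which separates the paralogs in both the miR-10 and the miR-196 family, is not given in the sources used here. Mir10b had 14.1 counts for each count of Mir196b in replicate 1 (13.3 to 15.1) and 1.47 in replicate 2 (1.37 to 1.59). Between the members with large ratios the makeup moved less. For each count of Mir615, Mir10b had between 19.5 and 22.7 counts in replicate 1, against 12.9 in replicate 2 (10.8 to 15.4), and these intervals do not overlap. It had 148 counts for each count of Mir196a-2 in replicate 1 (122 to 182) and 114 in replicate 2 (70.1 to 200.1). Mir615 had 7.06 counts for each count of Mir196a-2 in replicate 1 (5.72 to 8.78) and 8.88 in replicate 2 (5.28 to 15.9), and for Mir196a-2 with either gene the intervals of the livers overlap.

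Together the 6 genes took a share of 1.47% in replicate 1 (1.46 to 1.49, exact binomial interval) and of 0.458% in replicate 2 (0.450 to 0.465). The miR-10 genes made up 94.6% of the members' counts in replicate 1 and 90.3% in replicate 2, so the sum mostly follows these genes. The 2 miR-10 genes came to 13949 CPM in replicate 1 and 4132 CPM in replicate 2, a ratio of 3.38 (3.31 to 3.45). The 3 miR-196 genes came to 493 CPM in replicate 1 and 401 CPM in replicate 2, a ratio of 1.23 (1.14 to 1.33). Their level is a lower limit because of the reads lost at the identical Mir196a copies, and those reads could move the ratio either way. Counts of a gene can come from either arm of its hairpin, so these sums are not levels of a seed. Without Mir10b the other 5 genes had 0.838% of the counts in replicate 1 and 0.399% in replicate 2, a ratio of 2.10 (2.05 to 2.15). Without both miR-10 genes the ratio of the remaining sum was 1.79 (1.66 to 1.91), and most of that sum was Mir196b.

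**Figure D3:**
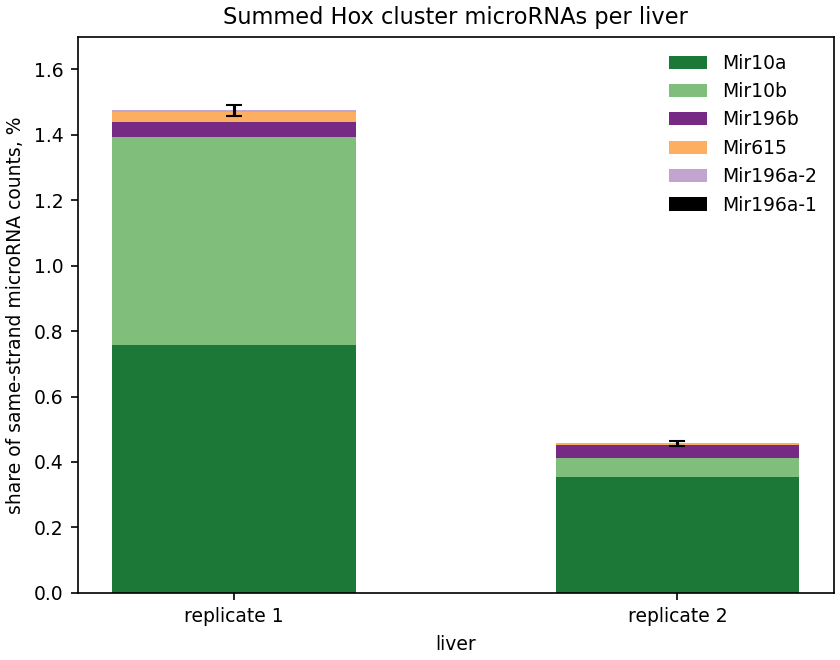
Share of the same-strand microRNA counts taken by the 6 Hox cluster genes, stacked by gene, in replicate 1 (left) and replicate 2 (right), in percent, with the exact 95% binomial interval of the sum as a black bar. The stack reaches 1.47% in replicate 1 and 0.458% in replicate 2, and the band of Mir10b (light green) shrinks most between them.

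Most other microRNAs had nearly the same level in the 2 livers. Over the 332 genes the median ratio was 0.977, and the middle 50% of genes lay between 0.890 and 1.11. Ranked by ratio from the top, Mir10b was at place 2, Mir196a-2 at 5, Mir615 at 8, Mir10a at 14 and Mir196b at 75. Mir10b had a mean over 1000 CPM only through replicate 1.

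The genes with the most similar ratios were taken from those with a mean of at least 100 counts, by the difference in log2 ratio with 0.5 added to each count. With only 2 libraries this likeness rests on 1 number per gene. Nearest to Mir10b were Mir137, a microRNA of neurons, with 242 CPM in replicate 1, against 22.3 CPM in replicate 2 (10.8-fold, 8.44 to 14.1), and Mir135b, with 126 and 12.4 CPM in replicates 1 and 2 (10.1-fold, 7.24 to 14.5). Nearest to Mir615 and to Mir196a-2 were Mir92b, with 75.6 and 10.9 CPM in replicates 1 and 2 (6.97-fold, 4.81 to 10.4), and again Mir135b. Genes as unequal as these were few, with 8 of the 332 over 4-fold higher in replicate 1, of which 3 were Hox cluster genes. The Hox cluster genes were chosen with these ratios known, so nothing is read from their number among the most unequal. Nearest to Mir10a were Mir598 at 1.95-fold (1.67 to 2.29) and Mir708 at 1.81-fold (1.46 to 2.23). Nearest to Mir196b were Mir7-1 at 1.14-fold (1.02 to 1.28) and Mir128-1 at 1.14-fold (0.984 to 1.31).

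**Figure D4:**
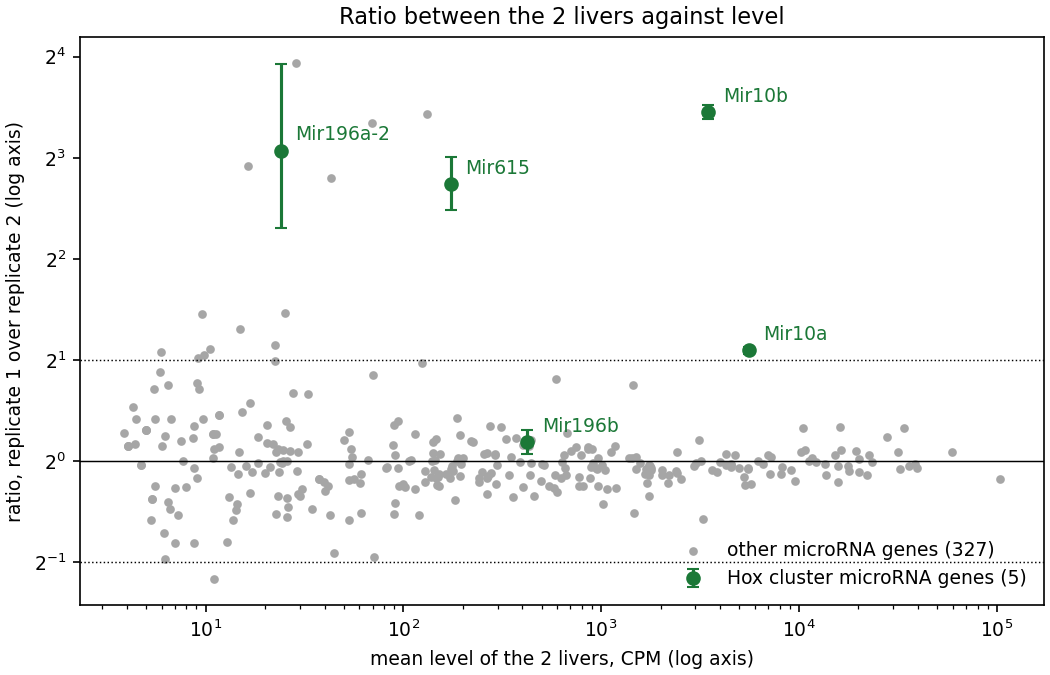
Ratio of replicate 1 over replicate 2 (log axis) against the mean CPM of the 2 livers (log axis) for 327 other microRNA genes (grey) and 5 Hox cluster genes (green, with exact 95% intervals that cover counting error only). Solid and dotted lines mark equal levels and 2-fold. Mir10b lies at 10.9 and Mir10a at 2.14, while Mir196b at 1.14 lies within the band of the other genes.

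The miR-99/100 genes lie outside the Hox clusters but make mature strands that resemble miR-10 moved by 1 base. They are shown with their own seed in capitals, for comparison with the miR-10 strands above.
miR-99a-5p (Mir99a): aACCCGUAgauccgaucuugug
miR-99b-5p (Mir99b): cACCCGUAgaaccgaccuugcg
miR-100-5p (Mir100): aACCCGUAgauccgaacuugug
Their seed differs from that of miR-10, and the longest stretch shared by a miR-10 hairpin and one of theirs was 11 bases (Mir10a with Mir100). Mir99a had 18119 CPM in replicate 1, against 14326 CPM in replicate 2, a ratio of 1.26 (1.25 to 1.28). Mir100 had 1816 CPM in replicate 1, against 1076 CPM in replicate 2, a ratio of 1.69 (1.61 to 1.77). Mir99b was level, with 6233 CPM in replicate 1 and 6234 CPM in replicate 2, a ratio of 1.00 (0.979 to 1.02). The 3 genes together had a ratio of 1.21, below that of the miR-10 genes together (3.38, 3.31 to 3.45).

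Markers of the cell types that a dissected liver could hold were set beside these ratios. The hepatocyte list (5 of 6 genes at the minimum of 10 counts) summed to 10.6% of the counts in replicate 1 and 12.0% in replicate 2, and no member was over 2-fold apart. The erythroid list (5 of 5 genes with a row) summed to 50169 CPM in replicate 1 and 39994 CPM in replicate 2, a ratio of 1.25 (1.24 to 1.26). Mir486, also an erythroid microRNA, was listed under other symbols and is not in that sum, and it went the other way, with 405 CPM in replicate 1, against 516 CPM in replicate 2 (0.785, 0.724 to 0.851). The endothelial list (3 of 3) had a ratio of 1.07 (1.06 to 1.07), with 62537 CPM in replicate 1, against 58639 CPM in replicate 2, and the white cell list (4 of 4) a ratio of 1.05 (1.04 to 1.07), with 12005 CPM in replicate 1 and 11393 CPM in replicate 2. Mir146, outside the white cell sum for the same reason, had a ratio of 0.893 (0.775 to 1.03). None of these lists held a gene over 2-fold apart, and the widest ratios in them were those of Mir182 (1.27), Mir126a (1.07) and Mir155 (0.747). The mesenchymal list (6 of 7) had a ratio of 1.13 (1.12 to 1.14), with 48179 CPM in replicate 1, against 42717 CPM in replicate 2, and the epithelial list (8 of 8) a ratio of 0.918 (0.894 to 0.943), with 3839 CPM in replicate 1 and 4180.0 CPM in replicate 2. Their widest ratios were those of Mir214 (0.743) and Mir200a (0.839). The kidney list (3 of 4) had a ratio of 0.911 (0.898 to 0.924), with 13094 CPM in replicate 1, against 14372 CPM in replicate 2. Nearly all of that sum was Mir30a, with 12992 and 14263 CPM in replicates 1 and 2, so the list's ratio is that of Mir30a. Within the list Mir204 was 2.74-fold higher in replicate 1 (1.47 to 5.34).

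The neural list had the summed ratio furthest from 1 of the marker lists, in the same direction as the Hox cluster genes. It summed to 745 CPM in replicate 1 and 334 CPM in replicate 2, a ratio of 2.23 (2.06 to 2.41). Of its 15 genes with a row, 10 reached the minimum, and 5 of these were over 2-fold higher in replicate 1, against 5.12% of all 332 genes. They were Mir219a-2 (15.4-fold, 8.30 to 31.6), Mir137, Mir153 (7.54-fold), Mir138-1 (2.76-fold) and Mir212 (2.15-fold). Those that reached the minimum but stayed under 2-fold were Mir128-2 (1.59-fold), Mir138-2 (1.58-fold), Mir132 (1.28-fold), Mir128-1 (1.14-fold) and Mir219a-1 (1.07-fold). The list was chosen with earlier results of these data known, so nothing is read from its share of unequal genes. Of the members below the minimum, Mir9-3 had 38 counts in replicate 1 and 2 in replicate 2, and Mir124a-1 had 0 in replicate 1 and 1 in replicate 2. Mir124a-2, Mir124a-3 and Mir9-2 were at 0 in both libraries. In this list and the others, reads of genes with identical copies were not counted if they mapped to more than 1 place. For such genes a count of 0 does not show absence, and levels and ratios rest on the remaining reads. The muscle list (3 of 8) had 312 CPM in replicate 1, against 278 CPM in replicate 2, mostly from Mir499 (273 and 258 CPM). In it Mir206 was 2.21-fold higher in replicate 1, and Mir1a-1, Mir133a-1 and Mir133a-2 were at 0 in both, again among reads that map to 1 place. The pancreas and gut list without Hox cluster genes (7 of 9) had a ratio of 0.999 (0.952 to 1.05), with 1241 CPM in replicate 1, against 1242 CPM in replicate 2, and Mir7b in it was 2.46-fold higher in replicate 1 (1.51 to 4.09). The part of neural, muscle or other cells in the ratios of the Hox cluster microRNAs was not tested.

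**Figure D5:**
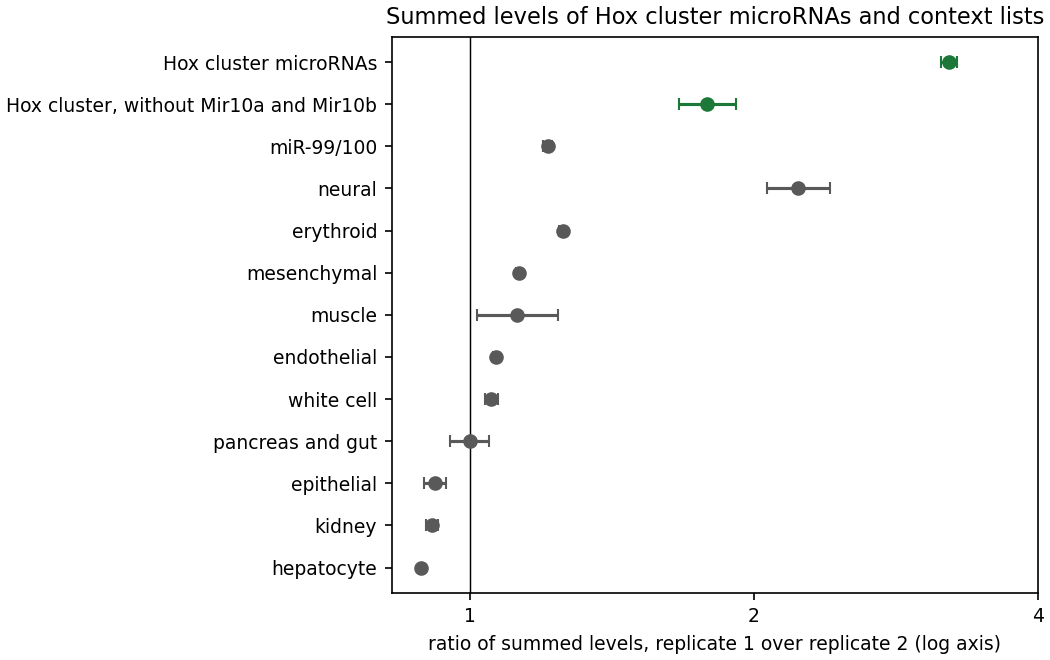
Ratio of summed levels, replicate 1 over replicate 2 (log axis), with exact 95% intervals that cover counting error only, for the Hox cluster microRNAs with and without the miR-10 genes (green), the miR-99/100 genes and the marker lists (grey). The Hox cluster sum stands at 3.22 (3.16 to 3.28) and the neural list at 2.23, while the hepatocyte list stands at 0.887.

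Counts on the opposite strand are a readout that did not enter the choice of the genes. They were 0 in both libraries at Mir10a, Mir10b, Mir196a-1, Mir196b and Mir615, and Mir196a-2 had 0 in replicate 1 and 1 in replicate 2. At Mir10a, 0 of 17852 counts in replicate 1 and 0 of 11117 in replicate 2 allow an opposite-strand share of up to 0.0207% and 0.0332% (upper Clopper-Pearson bounds). Of the 332 genes, 292 had 0 opposite-strand counts in both libraries (88.0%), so the Hox cluster genes were like most others in this.

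The known Hoxb8 target was looked up in the annotation to show what the miR-196 strand pairs with. No messenger RNA was measured in these libraries. The window of 22 bases that pairs best with miR-196a-5p lies in the part of the Hoxb8 transcript after the stop codon (chromosome 11), in the same cluster as Mir196a-1 and Mir10a. It is printed 5′ to 3′ with the bases opposite the seed in capitals.
Hoxb8 window: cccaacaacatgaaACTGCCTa
Of the 22 bases of miR-196a-5p, 21 have their Watson-Crick partner here. The exception is U5G, where the first letter is the base of miR-196a-5p, the position is counted from its 5′ end and the last letter is the base opposite in the transcript. Among the 36 Hox genes whose sequence after the stop codon was searched, no other had a window of this length that paired at more than 14 bases. Exact matches to whole seeds were then searched on the transcript strand after the stop codon. ACTACCT, the complement of the miR-196 seed, was found in 8 of 36 Hox genes and in 5.49% of 16470 coding genes. Hoxb8 was not among these 8, and its window has ACTGCCT opposite the seed. ACAGGGT for miR-10 was found in 4 of 36 Hox genes and in 11.4% of coding genes. GGCTCGG for miR-615-3p was found in 1 Hox gene, Hoxb4, and in 2.02% of coding genes. These matches describe letters in the annotation and do not show that a site is used.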

How the data were processed

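MicroRNA sequencing was deposited for 2 libraries of 1 group of embryonic livers. The authors deposited whole-number read counts for each microRNA gene, regardless of strand, on its strand and on the opposite strand. Per the notes deposited with the files, the assembly is mm10 and the annotation M4. Which aligner and counter were used is not given in the sources used here. Rows that name no gene (63.2% and 61.2% of the reads of replicates 1 and 2, among them reads mapped to more than 1 place) were left out. Gene IDs were matched without version to GENCODE M21 (1894 of 1973 matched).

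Same-strand counts were divided by their library totals. A gene with at least 10 counts in each library was compared by its ratio of CPM, with an exact binomial interval given the totals, and was called over 2-fold where the ratio passed 2 in either direction. Levels have exact Poisson intervals and shares Clopper-Pearson intervals (scipy 1.17.1). No p-value was computed, since there is 1 library per liver. The ratio intervals were tested on simulated data with known ratios. The simulated counts were independent Poisson draws, which the intervals assume. The test therefore checks the calculation only, and not the effect of PCR copies or of differences between livers. TMM scaling (edgeR 4.0.16) and size factors (DESeq2 1.42.0) served as alternatives. The members, the marker lists and the rule for named genes were chosen with earlier results of these data known. The rule named all members, any other microRNA row in the clusters, genes with a shared seed, the miR-99/100 genes and the 2 nearest genes by ratio for each member. For each list it named the gene with the largest log2 ratio in either direction, among those with at least 10 counts in each library. Listed marker genes with no row under the listed symbol, such as Mir142 and Mir486a, are not in the sums. The tables have rows named Mir486 and Mir146, whose values are given apart.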

Additional observations from a re-analysis of the deposited data

How the results depend on the processing

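All 30 recomputed ratios of the 5 members with enough counts stayed within the counting interval of the reported ratio and kept replicate 1 higher, under TMM, DESeq2 size factors, counts regardless of strand, totals without genes over 2-fold apart, and 0.5 or 10 added to each count. TMM, DESeq2 size factors and the totals without genes over 2-fold apart moved all ratios together by at most 1.02-fold. With 10 added to each count, the ratio of Mir196a-2 fell from 8.40 to 5.68 and that of Mir615 from 6.68 to 6.33. Regardless of strand, the ratio of Mir196a-2 was 7.96. The order of the 6 members was the same in each replicate and regardless of strand. Leaving out a replicate gave 3549 to 7584 CPM for Mir10a, 583 to 6365 for Mir10b, 395 to 450.3 for Mir196b, 45.3 to 303 for Mir615, 5.11 to 42.9 for Mir196a-2 and 0 to 0.319 for Mir196a-1, and 0.458% to 1.47% for their sum. Levels moved by more than the SD between livers for Mir196b, to 381 CPM regardless of strand, 472 CPM with Mir122 left out of the totals and 159.6 when scaled to all reads, and for Mir10a, to 2085 when scaled to all reads, each by construction of the total. The number of genes over 2-fold apart was 85 of 542 with at least 1 count, where low counts spread widely, and 3 of 215 with at least 100 counts. It was 39 at 1.5-fold and 8 at 3-fold, and 19 by TMM and by DESeq2. No paired analysis was possible because there is only 1 group. Depth limits Mir196a-1 and Mir196a-2, which had 1 and 16 counts in replicate 2, and the Mir196a copies lose the reads of their shared mature strand.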
